A study of Mus musculus with 12 samples.

Results

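The 10 genes described here are transcription factors and cofactors that act in hematopoietic stem and progenitor cells: *Myb*, *Runx1*, *Gata2*, *Meis1*, *Hoxa9*, *Lmo2*, *Tal1*, *Lyl1*, *Fli1* and *Erg*. They were chosen by name, and their rows were found in the deposited expression table through their Ensembl identifiers. All 10 of 10 are among the 15651 genes of the table, and all 10 passed the filter on low values in every comparison, with a lowest value of 7.59 TPM. TPM is an abundance of transcripts, corrected for their length and scaled to a fixed total within each library, so that levels can be compared between genes.

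In normal blood formation, these proteins bind DNA together at enhancers of stem and progenitor genes. Tal1 or Lyl1, both basic helix-loop-helix proteins, pair with E proteins and are joined to GATA factors through the bridging proteins Lmo2 and Ldb1. Runx1, the ETS factors Fli1 and Erg, and Gata2 occupy many of the same enhancers. Myb recruits the acetyltransferases p300 and CBP, and Hoxa9 and Meis1 are homeodomain proteins that keep progenitors immature and are highly expressed in many acute myeloid leukemias (AML). CCS1477 (inobrodib) binds the bromodomains of p300 and CBP, the part of these coactivators that docks on acetylated proteins.

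RNA was sequenced from c-Kit+ splenocytes, leukemic spleen cells enriched with beads for the receptor Kit, of moribund mice of 2 genotypes. *D/F* mice carried Dnmt3a fl/fl, Flt3 ITD/ITD and Mx1Cre, and *T/F* mice carried Tet2 fl/fl, Flt3 ITD/ITD and Mx1Cre, so that every library shares the *Flt3* internal tandem duplication and the Cre. The cells of a mouse were divided, and received either CCS1477 or its solvent DMSO for 6 hours, in medium with SCF, IL6 and IL3, and the dose of CCS1477 was 4 µM for *D/F* and 2 µM for *T/F* cells. This gave 12 libraries in 4 groups of 3 mice. Dose and genotype therefore cannot be told apart. The Mx1 promoter drives Cre in blood cells but also elsewhere, the study relied on its spontaneous activity so that 1 or both floxed alleles may be deleted in a given cell, and no cells without these mutations are among the libraries. Ages of the mice sequenced were not given in the sources used here. The study reports shorter survival of *T/F* than of *D/F* mice, so age may also have differed with genotype.

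Facts of the whole data set that touch these genes are few. *Dnmt3a* lay between 29.3 and 55.7 TPM in the *D/F* libraries and between 39.9 and 57.2 TPM in the *T/F* libraries, so its level does not separate the genotypes, while *Tet2* was lower in *T/F* than in *D/F* within each treatment (29.99 to 35.8 against 38.3 to 43.4 TPM with DMSO). The progenitor markers *Kit*, *Cd34*, *Flt3* and *Mpo* were present in every library, but *Ptprc*, which encodes the pan-leukocyte antigen CD45, was listed at only 0.826 to 3.11 TPM. Markers of endothelial and stromal cells were at or near 0, with 1 of 6 genes (*Emcn*) in the table at up to 2.48 TPM. Summed markers of mast cells and basophils (5 of 6 genes in the table) were between 102.6 and 199.4 TPM with DMSO and between 19.1 and 45.5 TPM with CCS1477 in *D/F*, beside 45.4 to 88.7 and 19.4 to 38.9 TPM in *T/F*. Those of macrophages (4 of 6) were between 16 and 22.2 TPM and between 2.72 and 4.31 TPM in *D/F*, beside 19.3 to 32.1 and 5.93 to 12.3 TPM in *T/F*, so both moved in the same direction as most of the factors below. The B-cell sum (3 of 6) was also lower with CCS1477 without overlap, at 12.2 to 25.6 against 5.54 to 11.4 TPM in *D/F* cells, beside 18.2 to 21.8 against 12.7 to 15.9 TPM in *T/F*. Most of this sum was *Cd79b* (10.4 to 22.8 TPM in *D/F* with DMSO). *Pax5* was higher with CCS1477 in *D/F* (0.368 to 0.445 against 0.488 to 1.32 TPM) and lower in *T/F* (1.05 to 2.38 against 0.425 to 0.748 TPM), and *Ebf1* overlapped in both. Megakaryocyte markers (5 of 6) were lower without overlap in *T/F* (62.9 to 68.3 against 45.7 to 46.9 TPM) and overlapped in *D/F*, and the sums for erythroid cells, T cells and mature neutrophils overlapped in both genotypes. The part of these cells in the results was not tested.

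*D/F* replicate 2 stood apart before any comparison of these factors. With DMSO it had 446.6 TPM of *Cd34* and 148.8 TPM of *Kit*, against 110.3 and 138.1 TPM and 50.5 and 60.9 TPM in the other *D/F* mice, and its megakaryocyte marker sum of 236.6 TPM compared with 46.2 TPM in the lowest *D/F* library. Its *Mpo*, a granule gene of more mature myeloid progenitors, was 1163 TPM against 2646 and 3673 TPM. It had the highest DMSO value of the *D/F* mice for 8 of the 10 factors, all but *Hoxa9* and *Fli1*. Calls and differences within *D/F* that leaving this mouse out moved by more than 1.5 times are given with and without it.

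The stretches of DNA just before the annotated starts of 5 of the genes are shown, because the factors bind each other's genes and because the set holds 3 genes that fell with CCS1477 (*Myb*, *Runx1*, *Erg*) and 2 that did not pass the test (*Gata2*, *Hoxa9*). They come from RefSeq on GRCm38.p6, which holds such windows for 8 of the 10 members and not for *Lmo2* and *Fli1*. For *Runx1*, which has 2 such starts, the proximal one is shown, and for *Erg* and *Gata2*, with 3 and 2, the one furthest upstream. Each window is the 250 bases upstream of a start, written 5′ to 3′ on the gene's strand, and capitals mark the ETS core GGAA or its reverse complement TTCC.
Myb (chr10:21160985-21161234, reverse strand): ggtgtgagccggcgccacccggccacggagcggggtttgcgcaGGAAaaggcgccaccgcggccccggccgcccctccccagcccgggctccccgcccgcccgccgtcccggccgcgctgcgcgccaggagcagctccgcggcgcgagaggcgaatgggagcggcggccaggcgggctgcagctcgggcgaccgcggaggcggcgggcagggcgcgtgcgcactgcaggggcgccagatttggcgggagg
Runx1 (chr16:92697330-92697579, reverse strand): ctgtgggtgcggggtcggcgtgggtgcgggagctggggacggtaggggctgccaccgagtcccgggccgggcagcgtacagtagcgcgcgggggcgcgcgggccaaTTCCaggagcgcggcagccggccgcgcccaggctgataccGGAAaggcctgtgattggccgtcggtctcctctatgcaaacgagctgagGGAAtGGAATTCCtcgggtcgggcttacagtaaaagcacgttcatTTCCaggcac
Erg (chr16:95586594-95586843, reverse strand): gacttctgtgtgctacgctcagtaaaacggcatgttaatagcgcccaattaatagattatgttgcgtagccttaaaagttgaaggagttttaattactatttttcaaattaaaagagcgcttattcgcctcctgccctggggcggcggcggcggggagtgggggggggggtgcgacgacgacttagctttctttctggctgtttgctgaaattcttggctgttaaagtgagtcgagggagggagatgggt
Gata2 (chr6:88193641-88193890, forward strand): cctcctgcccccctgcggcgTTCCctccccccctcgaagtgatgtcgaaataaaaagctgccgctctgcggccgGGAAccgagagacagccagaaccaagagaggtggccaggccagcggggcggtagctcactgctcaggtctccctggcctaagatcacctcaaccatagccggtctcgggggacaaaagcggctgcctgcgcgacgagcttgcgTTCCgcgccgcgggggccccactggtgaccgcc
Hoxa9 (chr6:52227371-52227620, reverse strand): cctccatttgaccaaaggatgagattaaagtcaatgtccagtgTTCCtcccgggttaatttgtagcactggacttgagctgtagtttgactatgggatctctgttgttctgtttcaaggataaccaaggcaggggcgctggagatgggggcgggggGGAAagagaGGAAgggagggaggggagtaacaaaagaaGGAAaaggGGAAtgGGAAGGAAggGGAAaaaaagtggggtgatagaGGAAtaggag
GGAA on either strand is found in 93.4% of the 32851 mouse promoter windows of this length, with a median of 3 matches. The number of matches ran from 0 in the *Erg* window to 9 in the *Hoxa9* window, with 1 in *Myb*, 6 in *Runx1* and 3 in *Gata2*. The GC content was 81.2% before *Myb* and 67.6% before *Runx1*, against 48.8% before *Erg* and 49.6% before *Hoxa9*. The other letters searched on both strands were GATAA, in 22.6% of all windows and here only in that of *Hoxa9*, and AACNG, a form of the MYB site, in 74.2% of all windows and here in those of *Erg*, *Gata2* and *Hoxa9*. None of these 5 windows held TGTGGT, a form of the RUNX site found in 14% of all windows, the E-box CAGNTG (44.8%) or the MEIS site TGACAG (15.9%). The other windows of these genes differed, so the counts depend on the start chosen. The upstream *Runx1* window held 4 ETS cores, 2 E-boxes and 5 MYB matches. The second *Erg* window held 4 ETS cores and 2 MYB matches. The third *Erg* window held 2 ETS cores, 2 MEIS matches and 1 each of GATAA, the E-box and the MYB form. In the second *Gata2* window, where all 250 bases lie in exons, there was 1 ETS core and no match to the other letters. These matches describe letters in short windows and do not locate bound sites.

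*Myb*, *Lmo2* and *Fli1* led the set in DMSO-treated cells of both genotypes. In *D/F* cells *Myb* (345.5 TPM with an SD of 55.2, n = 3) and *Lmo2* (332.6 TPM on average) were far above *Fli1* (131.3 TPM), and no *Lmo2* library overlapped with a *Fli1* library. Below them came *Lyl1*, *Runx1*, *Meis1*, *Erg*, *Gata2*, *Hoxa9* and *Tal1* (27.2 TPM), and each neighbour in that order overlapped with the next. In *T/F* cells the order was *Lmo2* (271.2 TPM), *Myb* (239.3 TPM), *Fli1* (116.3 TPM), *Lyl1* (94.3 TPM) and *Runx1* (66.4 TPM), followed by *Meis1*, *Hoxa9*, *Erg*, *Tal1* and *Gata2* (19.3 TPM), whose neighbours overlapped. Among the first 6 of that order only *Lmo2* and *Myb* overlapped. With CCS1477 the order changed. *Meis1* (68.7 TPM) had the highest mean in *D/F* cells, though it overlapped with *Myb* (68.1 TPM) and lay above *Myb* in replicate 2 only, and *Erg* was lowest in both genotypes. The summed TPM of the 10 genes was 1010, 1591 and 1063 with DMSO and 392, 467.5 and 398 with CCS1477 in *D/F*, and 941.5, 839.6 and 1006 against 491.7, 447.7 and 538.2 in *T/F*.

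Treated and untreated cells were compared by limma, genotype by genotype, on log2(TPM + 1), and p-values were adjusted over all genes tested, so that fold changes are on that scale and slightly understate those of low genes. In *D/F* cells 5 of the 10 genes fell at an adjusted p under 0.05 and none rose, and all 5 fell more than 2-fold. Of all 15501 genes tested, 6.51% fell and 5.14% rose by that rule, and 4.61% fell by more than 2-fold as well. Again 5 members fell, and *Meis1* rose, without *D/F* replicate 2, where 10.8% of all genes fell and 13.8% rose. In *T/F* cells 6 of the 10 fell and none rose, where 17.6% of all genes fell and 25.8% rose, and 3 of the 6 fell more than 2-fold, where 4.7% of all genes did. Over both genotypes 6 genes fell by the test, where 19.6% of all genes did. In 6 of 6 mice 7 of the 10 genes were lower with CCS1477, a count for which no share of all genes is given here. With the mouse as a block, 6 genes fell in *D/F*, 7 in *T/F* and 7 over both genotypes, where 18%, 22.9% and 25.9% of all genes did. The *D/F* groups did not overlap for 6 of the genes (16.7% of all genes were lower without overlap), and nor did the *T/F* groups for the same 6 (22.6% of all genes). In bulk RNA, fewer cells of a type and less RNA per cell cannot be told apart.

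**Figure D1:**
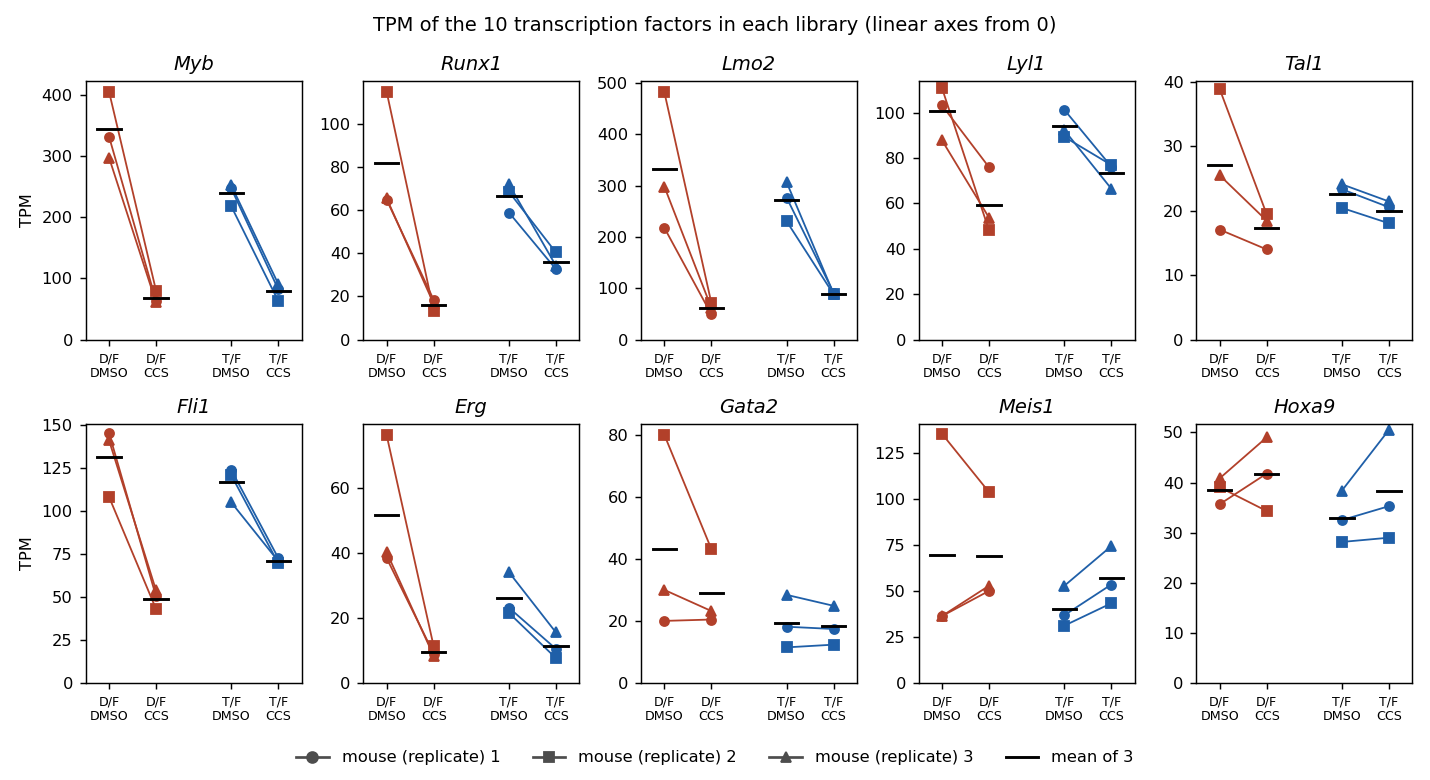
TPM (linear axes from 0, one scale per gene) of the 10 genes in each of the 12 libraries, with lines joining the DMSO and CCS1477 cells of a mouse and black bars for the mean of 3. *Myb*, *Runx1*, *Lmo2*, *Lyl1*, *Fli1* and *Erg* fell without overlap in both genotypes, whereas *Gata2*, *Meis1*, *Hoxa9* and *Tal1* overlapped, and *D/F* replicate 2 (squares) was the highest *D/F* mouse with DMSO for all genes but *Hoxa9* and *Fli1*.

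*Myb*, the p300-recruiting factor of the set (chromosome 10, 21124935 to 21160984, reverse strand, GRCm38), was among the genes that fell most. With DMSO the *D/F* libraries held 332.4, 406 and 298 TPM and with CCS1477 63.5, 80.2 and 60.7 TPM. The *T/F* libraries held 247.4, 218.2 and 252.4 TPM and then 82.2, 63.0 and 90.9 TPM. Every treated library lay below every untreated one. The share left was nearly the same in the 3 *D/F* mice, 19.7% ± 0.636 (SD, n = 3) of DMSO, while the *T/F* mice kept 32.7% ± 3.61. On the log2 scale *Myb* fell by 2.33 in *D/F* cells (standard error 0.19, limma adjusted p = 0.0043) and by 1.61 in *T/F* cells (standard error 0.15, limma adjusted p = 0.000933), and fewer than 1% of the genes tested in *D/F* (0.79%) fell further. An antisense gene without a row in the table, *Gm26577*, overlaps *Myb*.

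*Runx1*, the DNA-binding subunit of core binding factor (chromosome 16, 92601466 to 92826149, reverse strand), fell to different shares of the DMSO level in the mice. It was at 64.7, 114.6 and 65.3 TPM in *D/F* with DMSO and at 18.4, 13.4 and 16.5 TPM with CCS1477. The *T/F* values were 58.8, 68.4 and 71.9 TPM and then 32.6, 40.3 and 34.2 TPM. The treated *T/F* libraries therefore all stayed above the treated *D/F* libraries, whereas the DMSO libraries of the genotypes overlapped. On the log2 scale the gene fell by 2.23 in *D/F* cells (standard error 0.27, limma adjusted p = 0.0085) and by 0.88 in *T/F* cells (standard error 0.12, limma adjusted p = 0.00251). *Cbfb*, which encodes the other subunit of core binding factor, averaged 102.0 TPM with DMSO and 90.9 TPM with CCS1477 in *D/F* (adjusted p = 0.563), beside 108.5 TPM with DMSO and 115.7 TPM with CCS1477 in *T/F* (adjusted p = 0.299). The ratio of *Cbfb* to *Runx1* thus went from 1.31 ± 0.27 to 5.7 ± 0.706 (SD, n = 3) in the *D/F* mice, and in the *T/F* mice from 1.65 ± 0.195 to 3.27 ± 0.383, with no overlap between treatments.

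The 3 members of the Tal1 complex other than Gata2 responded to very different extents. *Lmo2*, the bridging LIM-only protein (chromosome 2, 103957986 to 103981878, forward strand), was at 217.7, 482 and 298 TPM in *D/F* with DMSO and at 49.0, 71.3 and 61.8 TPM with CCS1477. In *T/F* it was at 276.5, 230.5 and 306.6 TPM and then at 91.3, 88.0 and 89.4 TPM, so that the treated *T/F* mice differed by only a few TPM. The log2 fall in *D/F*, -2.37 (standard error 0.32, limma adjusted p = 0.0106), lay within its standard error of those of *Myb*, *Erg* and *Runx1*, while the *T/F* fall, -1.58 (standard error 0.11, limma adjusted p = 0.00051), was close to that of *Myb*. A protein-coding gene on the opposite strand, *4931422A03Rik*, overlaps *Lmo2* and had means of 47.2 TPM with DMSO and 11.3 TPM with CCS1477 in *D/F*, beside 39.1 and 14.6 TPM in *T/F*. The library kit is stranded, but the strand setting of the counting was not given in the sources used here, so reads of the overlap could have been shared.

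*Tal1* (chromosome 4, 115056426 to 115071755, forward strand) was the lowest of the bHLH pair and moved little. The *D/F* libraries went from 17.1, 38.9 and 25.5 TPM to 14, 19.5 and 18.5 TPM, and the *T/F* libraries from 23.4, 20.5 and 24.1 TPM to 20.6, 18.1 and 21.4 TPM. The value was lower in 6 of 6 mice, but the groups overlapped in each genotype. The log2 difference was -0.56 for *D/F* cells (95% interval -1.30 to 0.18, limma adjusted p = 0.277) and -0.36 without replicate 2 (adjusted p = 0.342), and for *T/F* cells it was -0.17 (95% interval -0.41 to 0.07, limma adjusted p = 0.212). With the mouse as a block, *Tal1* passed in *T/F* (adjusted p = 0.0438), where the 3 mice kept 88.4% ± 0.447 (SD, n = 3) of the DMSO level, and over both genotypes (adjusted p = 0.027 against 0.111 without the block), but not in *D/F* (adjusted p = 0.0594). The call over both genotypes was also made after rescaling the libraries to their median gene (adjusted p = 0.0286) and after quantile normalization (adjusted p = 0.0361).

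*Lyl1*, its close relative (chromosome 8, 84701457 to 84704715, forward strand), lay between *Lmo2* and *Tal1*. Its values in *D/F* were 103.2, 110.8 and 87.8 TPM with DMSO and 75.9, 48.1 and 53.7 TPM with CCS1477. In *T/F* they were 101.3, 89.3 and 92.3 TPM and 76.2, 76.9 and 66.5 TPM. In each genotype every treated library lay below every untreated one. The fall passed in *T/F*, by -0.36 on the log2 scale (standard error 0.09, limma adjusted p = 0.0203). In *D/F* it was -0.78 (standard error 0.21), which missed the threshold (adjusted p = 0.0654). It passed there with the mouse as a block (adjusted p = 0.0312), with an eBayes trend (adjusted p = 0.0425) and in the shared limma fit of all 4 groups (adjusted p = 0.00564). The *T/F* call was lost when any 1 of the 3 mice was left out and in the shared fit (adjusted p = 0.139). *Lyl1* overlaps *Nfix* on the opposite strand, whose group means lay between 43.9 and 54.1 TPM.

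Set against each other per length, these members changed their proportions. There was 12.3 ± 0.545 times as much *Lmo2* as *Tal1* RNA in *D/F* cells with DMSO and 3.5 ± 0.158 times as much with CCS1477 (SD, n = 3), and 11.9 ± 0.726 against 4.49 ± 0.356 times in *T/F*. The ratio of *Lmo2* to *Ldb1*, its other bridging partner, went from 2.91 ± 0.552 to 0.677 ± 0.0913 in the *D/F* mice, and in the *T/F* mice from 2.56 ± 0.196 to 1.04 ± 0.0766. No treated ratio overlapped with an untreated one. The ratio of *Lyl1* to *Tal1* changed less. It was lower with CCS1477 in 6 of 6 mice, at 4.11 ± 1.7 and then 3.6 ± 1.59 in *D/F*, beside 4.18 ± 0.304 and then 3.69 ± 0.58 in *T/F* (SD, n = 3), but overlapped between treatments, since the mice ran from 2.85 to 6.04 with DMSO.

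**Figure D2:**
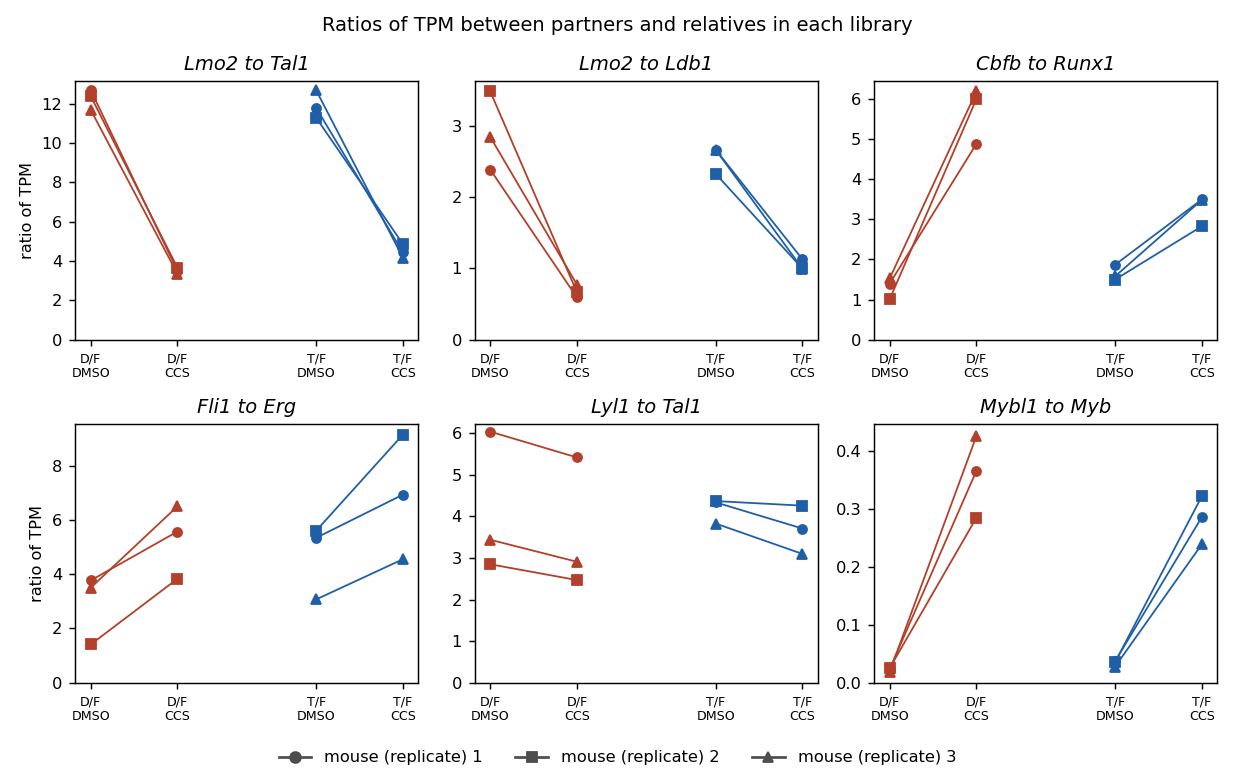
Ratios of TPM between pairs of genes in each library (linear axes from 0), with lines joining the cells of a mouse. *Lmo2* to *Tal1* went from between 11.3 and 12.7 to between 3.35 and 4.87 over the 12 libraries, *Cbfb* to *Runx1* and *Mybl1* to *Myb* were higher with CCS1477 in every mouse, and *Lyl1* to *Tal1* was slightly lower in every mouse but overlapped between treatments.

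*Gata2*, the zinc-finger factor of stem cells, mast cells and megakaryocyte progenitors (chromosome 6, 88193891 to 88207032, forward strand), did not pass the test in either genotype. The *D/F* libraries held 19.99, 80.1 and 30.0 TPM with DMSO and 20.4, 43.2 and 23.2 TPM with CCS1477. In *T/F* cells it was at 18.1, 11.4 and 28.4 TPM and then at 17.4, 12.3 and 24.9 TPM. The spread between mice was larger than any difference between treatments. In the main fit, which ignores the mouse, the 95% intervals of the log2 difference were therefore wide. They ran from -1.695 to 0.89 in *D/F* (limma adjusted p = 0.663) and from -0.98 to 0.88 in *T/F* (limma adjusted p = 0.93). With the mouse as a block they were narrower, from -0.94 to 0.14 in *D/F* (limma adjusted p = 0.175) and from -0.26 to 0.16 in *T/F* (limma adjusted p = 0.618). *D/F* replicate 2 was at 53.9% of DMSO with CCS1477, against 102% and 77.2% in the other *D/F* mice, and the *D/F* log2 difference of -0.40 was -0.17 without it (adjusted p = 0.622). That mouse also had the highest megakaryocyte (236.6 TPM) and mast cell and basophil (199.4 TPM) marker sums with DMSO, and their part in the *Gata2* values was not tested. *Gata1*, the related factor of erythroid and megakaryocytic cells, averaged 5.69 TPM with DMSO and 1.15 TPM with CCS1477 in *D/F* (adjusted p = 0.126), beside 6.24 and 4.05 TPM in *T/F* (adjusted p = 0.135), and it fell in both with the mouse as a block (adjusted p = 0.0132 and 0.00436). Without *D/F* replicate 2 its *D/F* means were 2.83 and 0.661 TPM (adjusted p = 0.0266).

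The ETS factors *Fli1* and *Erg* both fell. *Fli1* (chromosome 9, 32422204 to 32542861, reverse strand) went from 145.1, 108 and 140.9 TPM to 50.2, 42.8 and 53.6 TPM in *D/F*, and from 123.7, 120.6 and 104.8 TPM to 72.4, 69.4 and 70.6 TPM in *T/F*. It was the only one of the 6 falling genes for which *D/F* replicate 2 had the lowest value with DMSO. *Fli1* fell by 1.40 on the log2 scale in *D/F* cells (standard error 0.18, limma adjusted p = 0.0101) and by 0.71 in *T/F* cells (standard error 0.08, limma adjusted p = 0.00176). The *D/F* mice kept 37.4% ± 2.59 of the DMSO level and the *T/F* mice 61.2% ± 5.45 (SD, n = 3). An antisense gene without a row in the table, *Gm27201*, overlaps *Fli1*.

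*Erg* (chromosome 16, 95359169 to 95586593, reverse strand) started lower and fell further. It was at 38.4, 76.4 and 40.2 TPM in *D/F* with DMSO and at 9.01, 11.2 and 8.25 TPM with CCS1477. The *T/F* values were 23.2, 21.5 and 34.1 TPM and 10.4, 7.59 and 15.5 TPM, with no overlap. It fell by 2.27 on the log2 scale in *D/F* cells (standard error 0.29, limma adjusted p = 0.00995) and by 1.19 in *T/F* cells (standard error 0.28, limma adjusted p = 0.0188). The *T/F* call did not hold without replicate 1 or without replicate 2. The ratio of *Fli1* to *Erg* was higher with CCS1477 in 6 of 6 mice, at 2.9 ± 1.29 with DMSO and 5.3 ± 1.36 with CCS1477 in *D/F*, beside 4.67 ± 1.39 and 6.88 ± 2.3 in *T/F* (SD, n = 3).

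The homeodomain factors did not pass the test in the unblocked fits of all mice. *Hoxa9* (chromosome 6, 52223100 to 52231089, reverse strand) was at 35.7, 39.0 and 40.8 TPM in *D/F* with DMSO and at 41.8, 34.3 and 49.0 TPM with CCS1477. In *T/F* it was at 32.5, 28.1 and 38.4 TPM and then at 35.3, 29.0 and 50.5 TPM. Its groups overlapped in each genotype, with a log2 difference of 0.10 in *D/F* cells (95% interval -0.33 to 0.53, limma adjusted p = 0.752), 0.24 without replicate 2 (adjusted p = 0.277), and of 0.18 in *T/F* cells (95% interval -0.36 to 0.73, limma adjusted p = 0.545), 0.08 without replicate 3. Nor did it pass with the mouse as a block, at adjusted p-values of 0.565 in *D/F*, 0.162 in *T/F* and 0.161 over both genotypes, except over both when *D/F* replicate 2 was left out as well (0.21, adjusted p = 0.0301). These intervals do not reach the fall of *Myb*, *Lmo2*, *Runx1* or *Erg* in the same genotype.

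*Meis1*, the Hoxa9 cofactor (chromosome 11, 18879817 to 19018985, reverse strand), was higher with CCS1477 in 5 of 6 mice. The *D/F* libraries went from 36.2, 135.3 and 36.3 TPM to 49.9, 103.6 and 52.7 TPM, and the *T/F* libraries from 36.7, 31.0 and 52.6 TPM to 53.4, 43.2 and 74.3 TPM. *D/F* replicate 2 had by far the most *Meis1* and was the mouse in which it was lower. In *T/F* the 3 mice reached nearly the same multiple of DMSO, 142% ± 3.24 (SD, n = 3), but the groups overlapped because the mice differed, and the log2 difference of 0.49 did not pass without the mouse in the fit (adjusted p = 0.182, limma). The block fit with the mouse called it higher in *T/F* (adjusted p = 0.00408), where 31.2% of all genes rose. In *D/F* the difference was 0.20 (adjusted p = 0.853), and 0.49 without replicate 2 (adjusted p = 0.0417). Over both genotypes it was 0.35 (adjusted p = 0.428), and 0.49 without that mouse (adjusted p = 0.0308). Antisense genes within *Meis1*, *Gm16140* and *Gm16141*, also had higher means with CCS1477 (in *T/F* 3.97 TPM with DMSO and 6.197 TPM with CCS1477, beside 6.36 and 10.7 TPM).

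The 6 genes that fell over both genotypes (*Myb*, *Lmo2*, *Erg*, *Runx1*, *Fli1* and *Lyl1*) had log2 differences from -1.98 to -0.57 there, with adjusted p-values from 4.91e-06 to 0.0036 in limma with genotype as a covariate. An exact two-sided permutation test that swapped the treatments within each of the 6 mice gave p = 0.0312 for each of them and for *Tal1*, the smallest of its 64 arrangements, and 0.0625 for *Meis1*. Exchanging libraries between the mice of a genotype gave an exact p of 0.005 for each of the 6, the smallest it can give, and 0.075 for *Tal1*. Within 1 genotype the latter test cannot go below 0.1. The smallest p-values of both tests follow from the same direction in every mouse and from the lack of overlap given above. They are not adjusted over genes and add no separate support. The 10 genes had a median log2 difference of -1.09 in *D/F* cells and of -0.53 in *T/F* cells, beside 0.06 and 0.07 for all genes tested. Leaving out *D/F* replicate 1 or replicate 3 left no member and no gene of the table with an adjusted p under 0.05 in *D/F*, although 6 and 5 members, and 2494 and 2330 genes, had an unadjusted limma p under 0.05. The differences were of like size there, at -2.30 and -2.35 for *Myb* and -2.50 and -2.44 for *Lmo2*.

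**Figure D3:**
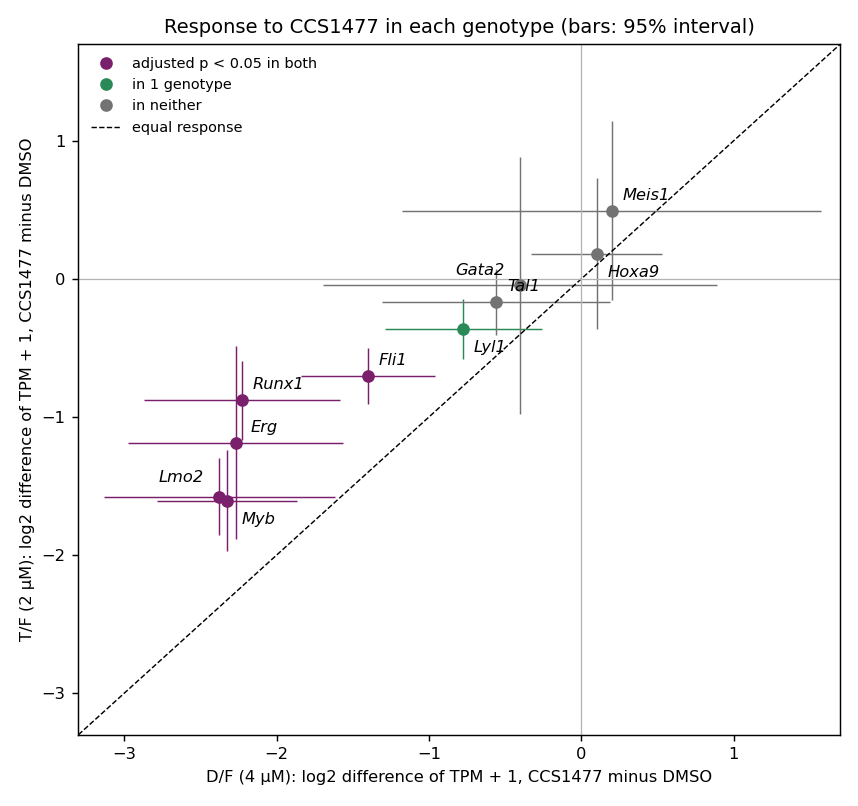
Log2 difference of TPM + 1 (CCS1477 minus DMSO) in *D/F* at 4 µM (x axis) and in *T/F* at 2 µM (y axis), with 95% intervals and a dashed line of equal response. All 10 genes lie above the line, from *Hoxa9* (0.10 and 0.18) to *Runx1* (-2.23 and -0.88).

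A fit of all 12 libraries tested whether the genotypes responded differently. The *T/F* response was less negative or more positive than the *D/F* response for 10 of 10 genes, by 0.08 to 1.35 on the log2 scale, with a median of 0.55 beside 0.02 for all genes tested. Without *D/F* replicate 2 this difference was -0.06 for *Hoxa9* and only 0.005 for *Meis1*, 0.12 for *Gata2*, 0.19 for *Tal1* and 0.21 for *Lyl1*. None passed after adjustment, and no gene of the table did (0% of 15583). At an unadjusted p under 0.05, 5 members had a less negative *T/F* response, where 2.5% of all genes were higher by that rule, namely *Runx1* (by 1.35), *Erg* (1.08), *Lmo2* (0.80), *Myb* (0.72) and *Fli1* (0.70). The limma adjusted p was 0.768 for *Runx1* and 1 for the others. With the mouse as a block the same 5 were under that limit, where 8.17% of all genes were, and their adjusted p-values lay between 0.17 and 0.213. Without *D/F* replicate 2 the *Runx1* difference was 0.96 (adjusted p = 0.316). The dose in *T/F* was 2 µM and that in *D/F* 4 µM, so the genotype and the dose cannot be told apart.

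Between the genotypes no member passed in either treatment. With DMSO, all 10 genes had lower log2 means in *T/F* than in *D/F*, by 0.09 for *Lyl1* to 0.97 for *Gata2*. Their median difference was -0.235, beside -0.039 for all genes tested, and 0.0328% of all genes passed. *Myb* and *Erg* were lower in *T/F* without overlap (7.42% of all genes were) and were the only members with an unadjusted p under 0.05, as 6.15% of all genes were (limma adjusted p = 0.627 and 0.697). Without *D/F* replicate 2 the sign turned for *Runx1*, *Meis1*, *Lmo2* and *Tal1*, and the differences were -0.42 for *Gata2*, -0.59 for *Erg*, -0.30 for *Fli1* and -0.015 for *Lyl1*, against -0.97, -0.91, -0.165 and -0.09 with it. With CCS1477, 7 genes had higher and 3 (*Gata2*, *Meis1* and *Hoxa9*) lower log2 means in *T/F*, and 0.0329% of all genes passed. *Runx1* was higher by 1.11 (95% interval 0.73 to 1.48, adjusted p = 0.131), *Lmo2* by 0.57 (adjusted p = 0.297) and *Fli1* by 0.53 (adjusted p = 0.227), each without overlap, as 9.59% of all genes were, and with an unadjusted p under 0.05, a limit under which 5.22% of all genes were higher. With CCS1477, *Gata2* differed by -0.30 and *Meis1* by 0.11 without *D/F* replicate 2, against -0.62 and -0.22 with it. Each of these comparisons shares its libraries with the tests of the responses above.

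**Figure D4:**
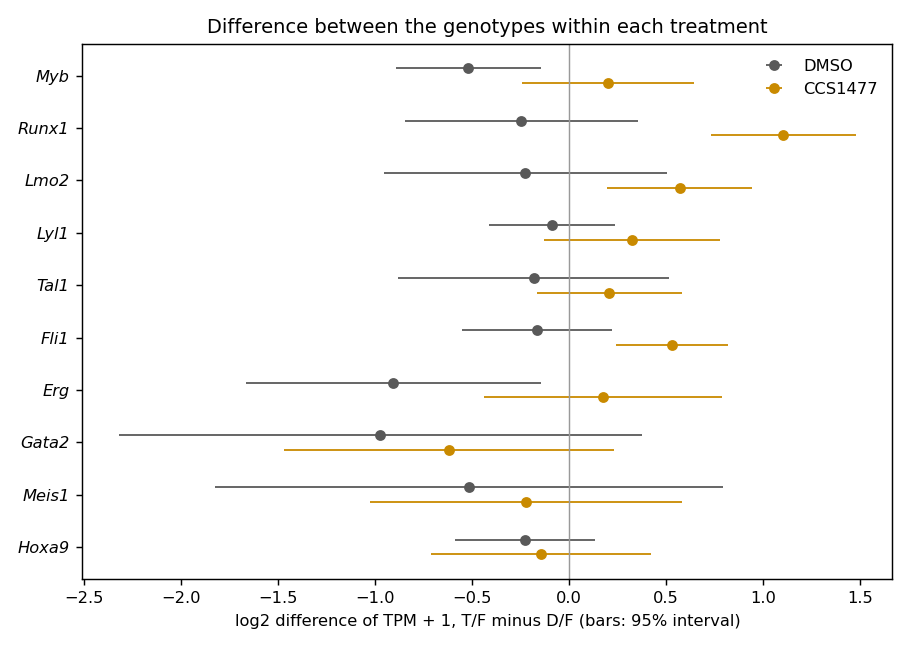
Log2 difference of TPM + 1 between the genotypes (*T/F* minus *D/F*) for the 10 genes within DMSO (grey) and CCS1477 (orange), with 95% intervals. All DMSO points lie below 0, at -0.97 (*Gata2*) to -0.09 (*Lyl1*), and *Runx1* with CCS1477 lies highest at 1.11. Without *D/F* replicate 2 the DMSO differences of *Runx1*, *Meis1*, *Lmo2* and *Tal1* were above 0.

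Genes that work with these factors were taken from 4 lists. Of 14 partners (cofactors and dimerization partners), 1 fell and 1 rose in *D/F*, and 3 fell and 6 rose in *T/F*, with medians of -0.02 and 0.23. Of all genes tested 6.51% fell and 5.14% rose in *D/F*, against 17.6% and 25.8% in *T/F*, so that the *D/F* counts are near the background. The mouse as a block gave 2 partners that fell and 4 that rose in *D/F*, where 18% and 21.4% of all genes did. Without *D/F* replicate 2, 2 fell and 3 rose, where 10.8% and 13.8% of all genes did. *Pbx3*, a homeodomain partner of Hoxa9 and Meis1, rose in both, from 3.92 to 12.3 TPM in *D/F* (log2 difference 1.45, limma adjusted p = 0.0189), and in *T/F* from 3.65 to 11.01 TPM (1.37, adjusted p = 0.000336). *Ssbp4*, of the family that stabilizes Ldb1, was the partner that fell in *D/F*, from 83.5 to 32.8 TPM (adjusted p = 0.0312), and its *T/F* means were 83.1 and 41.1 TPM (adjusted p = 0.00104). Its family members *Ssbp2* and *Ssbp3* went the other way, without a call in the main *D/F* fit. Without *D/F* replicate 2, *Ssbp3* passed there (log2 difference 1.12, limma adjusted p = 0.014) and *Ssbp2* did not (0.41, adjusted p = 0.0574). *Ssbp3* averaged 68.9 and then 136.2 TPM in *D/F*, and 65.5 and then 122.1 TPM in *T/F*. For *Ssbp2* the means were 54.7 and 68.7 TPM in *D/F*, and 44.8 and 63.3 TPM in *T/F*.

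Of 33 relatives of the same gene families, 23 were tested. In *D/F* 4 of them fell and 2 rose, where 6.51% and 5.14% of all genes did. In *T/F* 5 fell and 9 rose, where 17.6% and 25.8% of all genes did, and 5 of 23 falling is near that share. In the block fit 7 fell and 7 rose in *D/F*, where 18% and 21.4% of all genes did. In *T/F* 7 fell and 9 rose in that fit, where 22.9% and 31.2% of all genes did. Without *D/F* replicate 2, 7 fell and 6 rose in *D/F*, where 10.8% and 13.8% of all genes did. *Etv6*, a repressor of the ETS family, fell from 143.2 to 35.5 TPM in *D/F* (log2 difference -1.97, limma adjusted p = 0.00476), and in *T/F* from 125.4 to 50.8 TPM (-1.29, adjusted p = 0.0021). *Runx3* fell from 104.5 to 31.6 TPM (-1.59, adjusted p = 0.0317) and from 80.3 to 37.2 TPM (-1.07, adjusted p = 0.0086). *Mybl1*, a relative of *Myb*, rose from 7.98 to 24.0 TPM (1.51, adjusted p = 0.0129) and from 8.01 to 21.9 TPM (1.35, adjusted p = 0.000682), and its ratio to *Myb* went from 0.0228 ± 0.00324 to 0.359 ± 0.0712 in *D/F* (SD, n = 3). The more abundant relative *Mybl2* went the other way, with means of 113 and then 54.1 TPM in *D/F*, and 119.4 and then 61.6 TPM in *T/F*. Without *D/F* replicate 2 its *D/F* log2 difference was -1.15 (limma adjusted p = 0.0299). Of 10 other genes of the HoxA cluster, a group formed after their values were seen, 6 were tested. None fell in *T/F* and 3 rose, where 25.8% of all genes rose: *Hoxa3* (log2 difference 1.02, adjusted p = 0.0278), *Hoxa5* (1.03, adjusted p = 0.00704) and *Hoxa6* (1.02, adjusted p = 0.0102). In *D/F* none of the 6 passed, and these 3 had differences of 0.997, 0.69 and 0.75 and adjusted p-values of 0.25, 0.259 and 0.245. The same 3 passed in *D/F* with the mouse as a block (adjusted p from 0.00853 to 0.0148), where 21.4% of all genes rose. They also passed without replicate 2 (adjusted p from 0.0205 to 0.046), where 13.8% of all genes rose. The others did not pass in *T/F*, namely *Hoxa4* (0.52, adjusted p = 0.0697, and 0.0406 with the block), *Hoxa7* (0.24, adjusted p = 0.283) and *Hoxa10*, beside *Hoxa9*, which had lower means with CCS1477 (1.83 and 1.55 TPM, adjusted p = 0.772).

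Of 20 other stem and progenitor regulators, 19 were tested, and 3 fell and 1 rose in *D/F*, 5 fell and 3 rose in *T/F*. Of all genes, 6.51% fell in *D/F* and 17.6% in *T/F*. The share that rose in *T/F*, 3 of 19, is below the 25.8% of all genes, and 1 of 19 in *D/F* is near its 5.14%. In the block fit 6 fell and 1 rose in *D/F*, where 18% and 21.4% of all genes did. In *T/F* 11 fell and 3 rose in that fit, where 22.9% and 31.2% of all genes did. Without *D/F* replicate 2, 5 of 18 fell and 2 rose in *D/F*, where 10.8% and 13.8% of all genes did. *Gfi1*, a repressor needed for granulocyte formation, fell from 78.3 to 6.28 TPM in *D/F* (log2 difference -3.34, limma adjusted p = 0.00834), and in *T/F* from 56.5 to 8.08 TPM (-2.67, adjusted p = 0.000296). *Mycn* fell in both (-1.84 and -1.96), and *Mllt3*, which supports stem cell maintenance, rose from 18.2 to 41.5 TPM in *D/F* (1.18, adjusted p = 0.0306), and in *T/F* from 15.6 to 37.3 TPM (1.20, adjusted p = 0.000777). The last list held 20 genes known as targets of the factors. Like the others it was written with earlier results of these data known, so a shared direction is no independent support. In it 7 of 20 fell in *D/F* and 13 of the 19 tested fell in *T/F*, where 6.51% and 17.6% of all genes did. None rose in either genotype. Those named by the rule were *Myc*, *Bcl2*, *Gfi1*, which stands on both lists, and *Angpt1*, a ligand made by stem cells, which averaged 41.7 TPM with DMSO and 1.55 TPM with CCS1477 in *D/F* (-3.61, adjusted p = 0.0368). The *D/F* mean with DMSO was carried by the 96.3 TPM of replicate 2, without which the means were 14.3 and 0.71 TPM (-3.16, adjusted p = 0.0105), beside 12.3 and 1.39 TPM in *T/F* (-2.44, adjusted p = 0.00203). With the mouse as a block, 18 of 20 targets passed in *D/F* and 19 of 19 in *T/F*, all lower, beside the 18% and 22.9% of all genes given above. In *D/F*, 14 of 20 fell without replicate 2, where 10.8% of all genes did. Their medians without the block were -1.57 and -1.26. Of the targets, 4 (*Kit*, *Cd34*, *Flt3* and *Mpo*) are also the progenitor markers named above, and *Itga2b* is also a megakaryocyte marker.

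**Figure D5:**
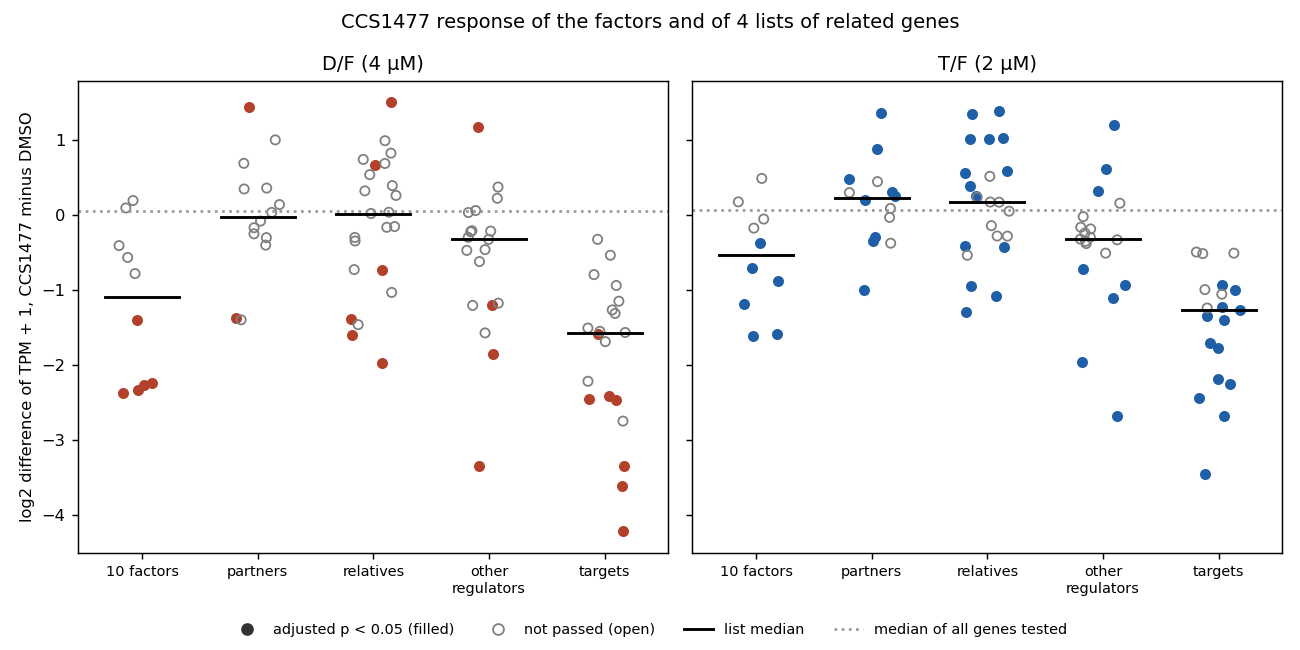
Log2 difference of TPM + 1 (CCS1477 minus DMSO) of the 10 factors and of the tested genes of the 4 lists, in *D/F* at 4 µM (left) and *T/F* at 2 µM (right), with filled points for an adjusted p under 0.05, black bars for list medians and a dotted line for the median of all genes tested. The factors (medians -1.09 and -0.53) and their targets (-1.57 and -1.26) lie below the dotted line at 0.06 and 0.07, whereas partners and relatives lie on both sides of it. The lists were chosen with earlier results of these data known.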

How the data were processed

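RNA-seq of 12 libraries was analysed. Per the labels, kallisto and mm10 were used, and the methods name AltAnalyze. The authors deposited linear TPM per gene without pooling. Every gene exceeds 2.00 TPM in some library, and libraries sum to 914204 to 931697 TPM. TPM keeps no read numbers, so depth is unknown and no count model was fitted. Symbols and positions came from GENCODE vM21 on GRCm38 (15252 of 15651 identifiers had a symbol). The annotation and strand setting of the authors' counting were not given in the sources used here, and the labels name both ribosome depletion and an mRNA kit.

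limma 3.58.1 in R 4.3.3 was run on log2(TPM + 1) for genes that averaged 1 TPM or more in a group compared. The eBayes step used no trend, p-values were two-sided and adjusted by Benjamini-Hochberg across all genes tested, after tests on simulated data. The main fit ignores the mouse. By the labels, a shared number marks cells of 1 mouse, and their deviations from the group means correlated at 0.354 to 0.669, against at most 0.141 between mice, so the fit with the mouse as a block is given where it changes a call of a member or moves the count of a list by more than 1.5 times. List values without 1 *D/F* mouse, and the test that swaps treatments within mice, were added after seeing the data. Members and lists were chosen with earlier results of these data known. Named list genes passed more than 2-fold in both genotypes in the same direction, up to 4 a direction by the smaller change, except where stated.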

Additional observations from a re-analysis of the deposited data

How the results depend on the processing

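The alternatives changed the pseudocount (to 0.1), the filter (5 TPM, or none) and the scaling (rescaling or quantile normalization), and used eBayes with a trend, a shared fit, the mouse as a block or each mouse left out. Leaving out 1 mouse gave 0 to 6 called members in *D/F*, 4 to 5 in *T/F* and 6 to 7 over both genotypes. The genes called in these settings were 0 to 3739 in *D/F*, 3192 to 5122 in *T/F* and 5660 to 8546 over both. The 0 in *D/F* came without replicate 1 or replicate 3, while 6 were called without replicate 2. The cause was not tested. Calling only above 2-fold left 3 members in *T/F*. With the mouse as a block 6, 8 and 7 members were called in *D/F*, *T/F* and over both, and 6098, 8249 and 9403 genes, against 1805, 6620 and 7061. Without *D/F* replicate 2 and with the block, chosen after seeing the data, 7 members were called in *D/F* and 9 over both. In that setting 5015 genes were called in *D/F* and 9308 over both.

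Of 780 log2 differences recomputed, 739 kept direction and side of the threshold, 16 lost and 15 gained a call, and 10 changed sign, none of them past the threshold. Leaving out 1 mouse gave these ranges: the *Gata2* response in *T/F* -0.12 to 0.02 (above 0 without replicate 3), *T/F* minus *D/F* with DMSO -0.38 to 0.025 for *Runx1*, -0.83 to 0.11 for *Meis1*, -0.49 to 0.08 for *Lmo2* and -0.46 to 0.11 for *Tal1* (each above 0 without *D/F* replicate 2), *T/F* minus *D/F* with CCS1477 -0.43 to 0.11 for *Meis1* (above 0 without *D/F* replicate 2), -0.36 to 0.032 for *Hoxa9* (without *T/F* replicate 2) and -0.07 to 0.40 for *Erg* (below 0 without *T/F* replicate 3), and the response difference of *Hoxa9* -0.059 to 0.16 (without *D/F* replicate 2, and -0.021 without *T/F* replicate 3). Across genotypes the replicate numbers are only names, and a replicate block on them called 0 members in either treatment.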
